A study of Homo sapiens with 8 samples.

Results

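The comparison described here is between replicate cultures A and B of NALM6 cells carrying the nucleosome binding-deficient S20,24E form of HMGN1 (SE in the plots). It rests on 4 of the 8 libraries of the study, 2 from each culture. NALM6 is an established line of B-cell precursor acute lymphoblastic leukemia, of human origin. Both cultures carried an inducible HMGN1 construct with serines 20 and 24 replaced by glutamate, and 1 library of each culture came from cells given vehicle and 1 from cells given doxycycline (DOX) at 100 ng/ml, both for 6 hours. The other 4 libraries, 2 cultures (A and B) with the wild-type (WT) HMGN1 construct under the same treatments, serve as the comparison most like it. The poly(A) libraries were made from equal numbers of cells with ERCC spike-ins, synthetic RNAs added in a fixed amount. Levels are FPKM, in which fragment numbers are divided by transcript length and by the mapped fragments of each library, in the unnormalized table unless the spike-in scale is named. Of 23713 rows, 11042 genes with a mean of at least 1 FPKM over the 8 libraries were tested after spike-ins and names of small RNAs were left out.

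The labels call A and B biological replicates, but no source used here says what separated them (clones, transductions or days). Each is 1 culture, so the p-values for A against B rest on how far the vehicle and DOX libraries disagree about that difference. That spread is moderated by the spread over all genes. The test of the mutant minus WT difference uses all 8 libraries, and the shift on the spike-in scale has a permutation test. None of these p-values measures how cultures of this line vary in general. Differences are A minus B in log2(FPKM + 0.1), with treatment as a term in a limma fit, and a gene is called at a Benjamini-Hochberg adjusted p under 0.05 over all genes tested. Whether each culture is a clone or a pool of cells is likewise not given.

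HMGN1 is an abundant protein that binds nucleosomes and is linked to more open chromatin. The gene groups followed here report what a cycling leukemia cell is doing. Genes for DNA replication peak as cells pass from G1 into S phase, and genes for chromosome segregation peak in G2 and mitosis. Replication-dependent histone genes are transcribed in S phase and their transcripts normally end in a stem-loop without a poly(A) tail, so poly(A) libraries record only the tailed fraction. Heat shock chaperones fold proteins and rise under heat shock factor when misfolded protein accumulates. Genes such as BTG2, TXNIP, TSC22D3 and YPEL family members are linked to slowed growth or altered nutrient supply.

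The libraries carried the B-lineage program of the labelled cell line. Of 30 B-lineage markers, 29 were tested, with a median level of 77.9 FPKM. Markers of other cells were scarce: 1 of 12 T-cell markers, 3 of 14 myeloid markers, 0 of 17 erythroid and megakaryocyte markers and 3 of 12 markers of adherent cells were tested. The T-cell genes CD3D, CD3G, CD2 and CD8B, the myeloid genes ELANE, S100A8 and S100A9, the globins HBA1, HBB, HBG1 and HBG2, and EPCAM were among those listed at 0 in all 4 mutant libraries. The summed myeloid markers were at 7.709 and 7.002 FPKM in culture A (vehicle, then DOX) and at 5.27 and 5.30 in culture B. The summed T-cell markers were at 5.47 and 5.50 in A and at 5.87 and 5.92 in B. The summed adherent-cell markers, mostly the intermediate filament gene VIM, were at 234.9 and 235.8 in A and 268.3 and 265.8 in B, and the summed erythroid and megakaryocyte markers lay between 0.533 and 0.802 in the 4 libraries. Depth is unknown, since the files hold no counts. Culture A had 6906 and 6696 rows listed at 0 against 7303 and 7359 in B, and 5369 and 5549 rows between 0 and 1 FPKM against 5109 and 5036 in B. The part of these differences in the results below was not tested.

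HMGN1 itself was the first difference between the cultures. The mutant libraries of culture A held 1427 (vehicle) and 1421 (DOX) FPKM, and those of culture B held 1066 and 1061. The cultures did not overlap, and within each culture the vehicle and DOX libraries were nearly equal. HMGN1 was higher in A by 0.42 ± 0.05 on the log2 scale (standard error, limma adjusted p = 6.74e-06), or 1.34-fold. The WT libraries held 809.2 and 792.9 FPKM in A and 796.0 and 795.3 in B, and the A minus B difference there was 0.01. The mutant and WT culture differences themselves differed by 0.41 (limma adjusted p = 0.000396). On the spike-in scale the mutant difference was 0.18 and was not called. HMGN1 has processed pseudogenes, and whether transcripts of the construct are counted on this row is not given, so the value does not check the treatment labels. Among the other nucleosome-binding HMGN genes, HMGN3 was lower in A (138.1 and 140.4 FPKM against 160.9 and 162.5, log2 -0.22) and so was HMGN5 (36.5 and 36.3 against 39.6 and 39.2, log2 -0.11), whereas HMGN2 and HMGN4 were not called at log2 -0.03 and -0.08. HMGN5 was not called in the fits without 1 of the 4 mutant libraries, whichever was left out. Such fits, here and below, are not separate checks. Without either vehicle library the difference is that of the DOX pair, and without either DOX library that of the vehicle pair.

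Across the genome the cultures differed by many small amounts. Of 11042 genes, 4704 were called, which is 42.6% of those tested: 1836 (16.6%) were higher in A and 2868 (26%) were lower. The median size of a called difference was 0.21 on the log2 scale. At least 1.5-fold differences numbered 215, with 169 genes higher in A (1.53% of those tested) and 46 lower (0.417%), and 48 genes differed at least 2-fold. Of the 4704 called genes, 4676 had cultures that did not overlap in their 2 libraries each, as did 8164 (73.9%) of all genes tested. The difference between the vehicle libraries and the difference between the DOX libraries correlated at Pearson r = 0.72 across the 11042 genes, which share the same 4 libraries and are not independent replicates. The pair differences had the same sign for 4692 of the called genes and opposite signs for 12.

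The number of calls depends on the settings and on which libraries enter. With no minimum level limma called 0 genes, while 5299 had an unadjusted p under 0.05. It called 1131 when rows of small RNA names stayed in, and 5 in the fit of all 8 libraries with no replicate block in the WT line. That last fit counts the difference between the WT cultures as spread. The other fits of the mutant line set the culture difference only against the spread between libraries within cultures. The count was 2997 without the culture A vehicle library, 2571 without the culture A DOX library, 2989 without the culture B vehicle library and 2578 without the culture B DOX library, in a fit that borrows the spread of the WT libraries. The split into higher and lower also depends on scaling: 117 genes were higher and 561 lower on the spike-in scale, and 2204 were higher and 2022 lower once the trend with level described below was removed by cyclic loess, a choice made after the data were seen.

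**Figure D1:**
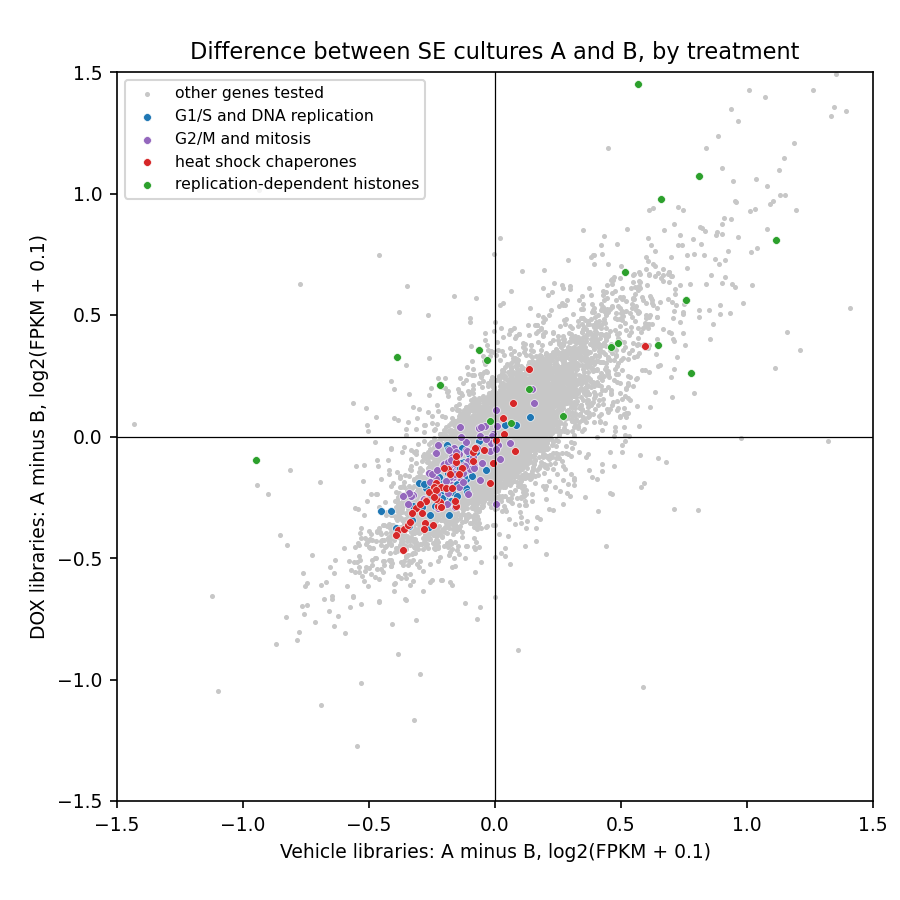
Each point is a gene, placed by its culture A minus culture B difference in the vehicle libraries (horizontal axis) and in the DOX libraries (vertical axis), both in log2(FPKM + 0.1), and 4 gene lists are coloured. Of the 11042 genes, 26 lie outside the axes, and points run along the diagonal (Pearson r = 0.72), with most replication, mitosis and heat shock genes at the lower left and most histone genes at the upper right.

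Direction followed level. Ranked by mean FPKM and divided into 5 classes, the genes of the lowest class (1.00 to 4.77 FPKM) had a median A minus B difference of 0.09, with 27.3% higher in A and 9.42% lower. In the highest class (41.7 to 4960 FPKM) the median was -0.11, with 5.61% higher and 55.5% lower. Across genes the Spearman correlation of the difference with level was -0.38 in the mutant line and 0.04 in the WT line. The 26% lower over all genes and the 55.5% of the highest class are the shares beside which counts of abundant groups stand below. For counts in the WT line the shares over all genes are 24.4% higher in A and 22.9% lower. For the mutant minus WT difference the share called is 44.5%. With the level trend removed, 2204 of the 11042 genes were higher in A and 2022 lower. On the spike-in scale 117 of them were higher and 561 lower, around a median of -0.27. Group counts and medians under those scalings stand beside these values. Correlations with annotated transcript length (0.16) and GC content (-0.13) over 10186 matched genes were weaker. The part of level in the group results was not tested beyond the fit with the trend removed.

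**Figure D2:**
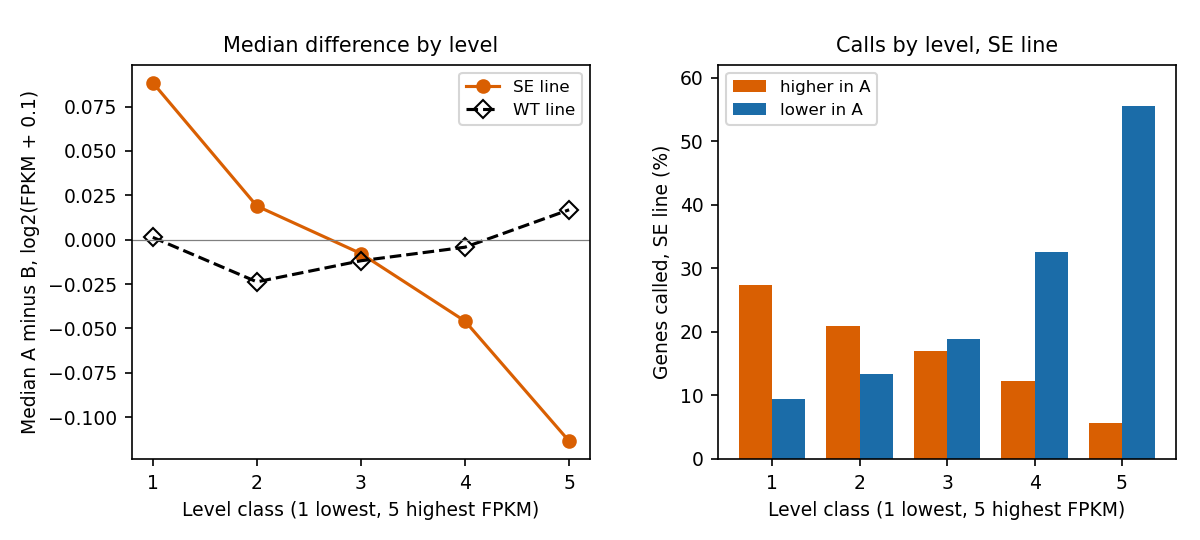
The left panel shows the median A minus B difference in log2(FPKM + 0.1) for 5 classes of genes ranked by mean FPKM, in the mutant (SE) and WT lines, and the right panel shows the percent of genes of each class called higher or lower in culture A in the mutant line. The mutant median falls from 0.09 to -0.11 from the lowest to the highest class while the WT median stays between -0.02 and 0.02.

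Per spike-in, culture A also gave a lower level for most genes. Spike-ins made up 0.826% (vehicle) and 1.06% (DOX) of the FPKM in culture A and 0.719% and 0.763% in culture B. On the spike-in scale the median gene was lower in A by 0.16 between the vehicle libraries and by 0.38 between the DOX libraries. The median over genes was -0.27 on the spike-in scale, against -0.02 in the unnormalized table, and 91.5% of genes lay below 0. An exact two-sided permutation test on the library medians gave p = 0.33, the smallest that 2 libraries against 2 allow. Less RNA per cell, a different amount of spike-in and a different cell number cannot be told apart here. On this scale 678 genes were called, of which 615 were also called in the same direction in the unnormalized table and 0 were called in the opposite direction.

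The largest rises in culture A were single genes of unlike function. Among genes with a mean of at least 5 FPKM in the mutant libraries, the 12 largest higher in A ran from log2 1.46 for TSC22D3 to 0.91 for BTG2, with limma adjusted p between 2.34e-12 (CD82) and 6.88e-06 (SLX1A). TSC22D3, the glucocorticoid-induced leucine zipper, was at 7.71 and 7.37 FPKM in A (vehicle, then DOX, here and below) and 2.41 and 2.95 in B. CD82, a tetraspanin of the cell surface, was at 21.4 and 20.2 in A and 8.35 and 7.82 in B. TSC22D3 stood 2.76-fold and CD82 2.55-fold above culture B. That the cultures do not overlap was a condition for naming these largest differences. CHRNA1, the alpha subunit of the muscle acetylcholine receptor, was at 15.5 and 14.9 FPKM in A and 6.09 and 5.91 in B. IFITM1, an interferon-induced membrane protein that restricts viral entry, was at 9.13 and 9.83 in A and 4.30 and 3.67 in B. In WT cells both of these genes were lower in A, by 0.39 for CHRNA1 and by 0.74 for IFITM1, and the mutant minus WT difference was 1.72 and 1.97.

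Next came TRMT1L, a relative of a tRNA methyltransferase, at 21.9 and 21.5 FPKM in A and 9.95 and 10.0 in B. ALDOC, the aldolase C of glycolysis, was at 48.4 and 45.1 in A and 21.7 and 22.6 in B. YPEL5, a small conserved protein of the ubiquitin ligase complex CTLH, was at 11.7 and 11.4 in A and 5.64 and 5.43 in B. In these 3 genes the libraries of a culture lay far closer to each other than to the other culture. LY96, the partner of TLR4 in lipopolysaccharide sensing, was at 6.76 and 7.71 in A and 3.57 and 3.53 in B. ABCA1, which exports cholesterol, was at 12.2 in both A libraries and 6.23 and 6.19 in B. BTG2, an antiproliferative gene, was at 23.5 and 23.0 in A and 12.46 and 12.28 in B. The WT line was also called higher in A for LY96 (log2 0.80), ABCA1 (0.69), YPEL5 (0.54), CD82 (0.34), BTG2 (0.14) and TRMT1L (0.13). TSC22D3 (-0.43) and SLX1A (-0.68) were called lower there, as were CHRNA1 and IFITM1, and ALDOC was not called. NKAIN4, whose product interacts with the sodium pump, was at 18.9 and 19.2 in A and 9.72 and 9.74 in B, and the WT cultures differed more (log2 1.67 against 0.96). SLX1A, a subunit of a structure-specific nuclease with a near-identical copy, was at 13.16 and 13.02 in A and 4.89 and 8.99 in B. Its value is uncertain for that reason and moved from 0.97 to 0.53 without either vehicle library. All 12 of these genes were also called on the spike-in scale, again higher in A, where the largest adjusted p among them was that of BTG2 (0.015).

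The largest falls in culture A were smaller. The 11 reported at 5 FPKM or more ran from -0.79 for GAMT to -0.61 for WDR18, with limma adjusted p between 1.74e-10 (SNRPA1) and 2.91e-06 (CLCN5). GAMT, which makes creatine, was at 19.1 and 18.7 FPKM in A and 32.8 and 32.7 in B. RASD1, a Ras-like protein induced by glucocorticoid, was at 16.6 and 16.7 in A and 29.51 and 27.97 in B. SNRPA1, a protein of the U2 small nuclear ribonucleoprotein of the spliceosome, was at 66.3 in both A libraries and 108.7 and 112.5 in B. Vehicle and DOX libraries of a culture were close to each other in these 3 genes. CD22, an inhibitory coreceptor of B cells, was at 16.2 and 15.7 in A and 25.4 and 25.1 in B. WDR18, a factor of ribosomal RNA processing, was at 36.6 and 35.6 in A and 54.2 and 56.4 in B. RASD1, EGFL7, CD22 and CLCN5 were also lower in A in the WT line, with EGFL7 at -2.72 there against -0.70 in the mutant line. GAMT, TMEM160, HEATR5B, PRR7 and WDR18 were called in the opposite direction in the WT line. TMEM160, a transmembrane protein, was at 17.09 and 14.35 in A and 27.05 and 23.63 in B, and PRR7, SAMD1, HEATR5B, CLCN5 and EGFL7 fell by 0.64, 0.65, 0.65, 0.64 and 0.70.

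**Figure D3:**
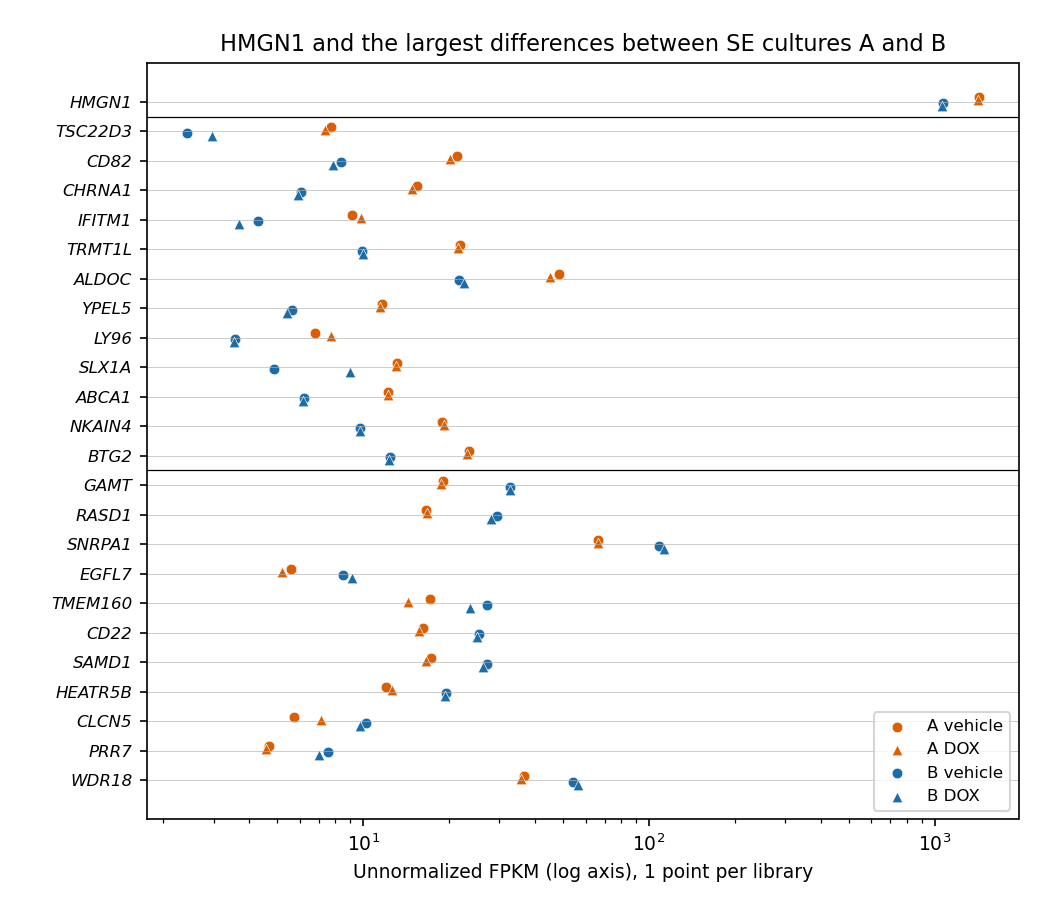
Unnormalized FPKM of HMGN1 (top), the 12 largest rises and 11 of the largest falls in mutant culture A on a logarithmic axis, with 1 point per library. Orange is culture A and blue is culture B, circles are vehicle and triangles are DOX. Apart from HMGN1, genes were taken from called genes whose cultures do not overlap, so their separation in the plot was fixed by that choice.

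Some genes below 5 FPKM differed more. EMR3, an adhesion G protein-coupled receptor of myeloid cells, was listed at 0 and 0.01 FPKM in A and at 10.1 and 9.81 in B. Under the WT construct it was at 0 to 0.01 in the 4 libraries, so that culture B of the mutant line stood alone. Its mean of 2.49 FPKM over the 8 libraries passed the minimum only through that culture. Of the 14 myeloid markers, 4 were at 0 in all mutant libraries, while CD68, LYZ and CD33 were present in culture B at 1.72 and 1.94, 1.23 and 1.22, and 1.65 and 1.43 FPKM. In culture A they lay above these values, at 3.28 and 2.87, 1.70 and 1.47, and 1.81 and 1.83, the opposite direction to EMR3. The part of other cells in the EMR3 value was not tested. DHRS2, a mitochondrial and nuclear reductase, was at 5.59 and 4.90 in A and 0.660 and 0.623 in B, a log2 difference of 2.85 ± 0.10 (limma adjusted p = 2.34e-12). In the WT line DHRS2 was also called higher in A, by 0.68. ARHGEF25, a guanine nucleotide exchange factor, was at 7.91 and 7.93 in A and 1.91 and 2.05 in B. LSP1, an actin-binding protein of leukocytes, was at 1.70 and 1.52 in A and 0.284 and 0.382 in B, and the WT cultures differed likewise (log2 2.49 against 1.99). ARHGEF25 was at 2.13 to 2.45 FPKM in the WT libraries, with no call between the cultures. TMEM238 and NUDT8 fell by 1.07 and by 0.91 in A. RMRP and BCYRN1, noncoding RNAs, rested on the DOX libraries: RMRP differed by 0.55 and BCYRN1 by -0.90 between the vehicle libraries alone, and neither was called without a DOX library of either culture.

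Genes of G1/S and DNA replication were lower in A almost throughout. Of 66 tested, 55 (83.3%) were lower and 1, RMI2, was higher, against 26% lower over all genes and 55.5% in the highest level class. Their median was -0.17, against -0.02 over all genes. In bulk RNA, fewer cells in a phase and less RNA of these genes per cell cannot be told apart. ORC1, the large subunit of the origin recognition complex, was at 21.2 FPKM in both A libraries and 27.9 and 27.6 in B. MCM4, a subunit of the replicative helicase, was at 75.4 and 75.7 in A and 94.8 and 96.1 in B. CCND3, cyclin D3, was at 155.4 and 158.7 in A and 197.0 and 205.0 in B. In each the vehicle and DOX libraries of a culture were close together and the cultures were apart. CDC45, which joins the helicase to the replisome, fell by 0.32, the chromatin assembly subunit CHAF1B by 0.36 and the polymerase epsilon subunit POLE2 by 0.38. These 6 had limma adjusted p between 1.27e-06 (ORC1) and 6.00e-06 (CDC45). With the level trend removed the median was -0.08, with 28 members lower and 2 higher, and on the spike-in scale it was -0.42, with 4 lower. Over all 11042 genes these medians were 0.00, with 2022 lower and 2204 higher, and -0.27, with 561 lower. Between the WT cultures 24 members were lower in A and 14 higher, around a median of -0.02, and the mutant minus WT difference was called below 0 for 37 members and above 0 for 2. Of the 6 above, CCND3 (log2 -0.41), CHAF1B (-0.13) and CDC45 (-0.11) were also lower in WT culture A. MCM4 was higher there (0.17), and ORC1 and POLE2 were not called. The mutant minus WT difference of CCND3 was 0.05 and not called.

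Genes of G2/M and mitosis were also lower in A, and here the WT cultures went further the same way. Of 83 tested, 55 (66.3%) were lower, against 55.5% in the highest level class, and 2, ARL6IP1 and CDC25B, were higher, with a median of -0.14. DLGAP5, a spindle protein of mitosis, was at 47.6 and 49.1 FPKM in A and 60.0 and 58.2 in B. CCNA2, cyclin A2, was at 73.2 and 74.6 in A and 89.3 and 89.4 in B. AURKA, the mitotic kinase Aurora A, was at 42.3 and 44.8 in A and 53.08 and 52.96 in B. No library of A reached B in these 3 genes, although the largest fold, that of DLGAP5, was 1.22. The kinetochore gene SPC25 fell by 0.30, CDCA2 by 0.31 and the condensin subunit NCAPG by 0.27, and limma adjusted p over these 6 lay between 1.37e-05 (DLGAP5) and 1.90e-05 (NCAPG). MKI67, the proliferation marker Ki-67, named after its values were seen, was at 91.9 and 95.9 in A and 95.5 and 93.5 in B and was not called. With the level trend removed 23 members were lower and 7 higher around a median of -0.04, and on the spike-in scale 1 was lower. In the WT line 68 members were lower in A and 1 higher, with a median of -0.19, and the mutant minus WT difference was called above 0 for 29 members and below 0 for 7.

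Many promoters of these mitotic genes hold the cell cycle homology region (TTTGAA, or TTCAAA on the other strand) and CCAAT boxes (CCAAT or ATTGG), elements known from G2/M genes. RefSeq promoters (GRCh38.p14, 250 bases before the start) were matched for 44 of the 55 lower members. TTTGAA was in 22 of them (50%), against 13.6% of 27305 promoters and 8.15% of those of 8173 tested genes, and CCAAT was in 34 (77.3%), against 33% and 36.5%. These are matches of letters, not bound sites. No share was taken for members not lower in A, here or for the heat shock genes below. The shares therefore describe the gene groups and not the difference between the cultures. The promoters below, 120 bases up to the start, 5′ to 3′ on the gene's strand, show the elements beside each other, with both in capitals. They lie at DLGAP5 chr14:55191586-55191705 (minus strand), INCENP chr11:62123891-62124010 (plus strand), HJURP chr2:233854536-233854655 (minus strand) and PLK1 chr16:23678769-23678888 (plus strand). They were chosen because both elements fall in these bases.
DLGAP5: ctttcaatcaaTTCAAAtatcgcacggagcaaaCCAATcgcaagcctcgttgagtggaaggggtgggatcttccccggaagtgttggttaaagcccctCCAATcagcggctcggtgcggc
INCENP: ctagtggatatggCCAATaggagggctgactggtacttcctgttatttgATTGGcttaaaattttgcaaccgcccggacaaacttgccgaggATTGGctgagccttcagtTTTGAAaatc
HJURP: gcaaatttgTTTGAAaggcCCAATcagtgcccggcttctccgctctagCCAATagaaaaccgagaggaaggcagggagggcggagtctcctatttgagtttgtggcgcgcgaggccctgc
PLK1: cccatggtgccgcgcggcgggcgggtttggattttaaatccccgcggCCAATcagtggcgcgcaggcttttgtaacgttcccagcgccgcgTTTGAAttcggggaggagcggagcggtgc
INCENP, of the chromosomal passenger complex, was at 34.3 and 38.1 FPKM in A and 43.5 and 44.8 in B. HJURP, which deposits the centromeric histone, was at 37.2 and 37.4 in A and 43.7 and 44.1 in B. PLK1, the Polo kinase, was at 80.2 and 81.2 in A and 91.3 and 95.3 in B. All 3 were lower in A, by 0.29, by 0.23 and by 0.21.

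Replication-dependent histones went the opposite way to the replication genes. Of 72 genes listed, 22 passed the minimum of 1 FPKM. Of these, 13 (59.1%) were higher in A and 1 (4.55%), HIST1H3H, was lower, around a median of 0.47. Over all genes 16.6% were higher and 26% lower. In the lowest level class, which holds their median level (1.82 FPKM), 27.3% were higher and 9.42% lower, around a median of 0.09. The filter used all 8 libraries, so these 22 are not the whole family, and 6 members were listed at 0 in the 4 mutant libraries. The summed FPKM of the listed genes was 163.3 and 186.6 in A and 135.8 and 141.1 in B. HIST1H2BK, a histone H2B gene, was at 14.6 and 15.7 in A and 9.21 and 7.92 in B, a log2 difference of 0.82 ± 0.06 (limma adjusted p = 3.69e-08). HIST1H1C, a linker histone gene, was at 5.08 and 5.01 in A and 2.29 and 2.82 in B, a difference of 0.96. HIST1H2BC was at 1.03 and 2.42 in A and 0.546 and 1.10 in B, so its cultures overlapped. HIST1H2BC was not called without either DOX library. The near-identical pair HIST2H2AA3 and HIST2H2AA4 (log2 0.44 and 0.41) and HIST2H4A (0.66), which has a copy of its own, are uncertain. HIST2H2AA4 and HIST2H4A were not called in the fits without 1 of the 4 libraries, whichever was left out, and HIST2H2AA3 was not called without either vehicle library. The direction was kept under both other scalings: the median was 0.23 on the spike-in scale and 0.40 with the level trend removed, with 8 and 14 members higher. Among WT libraries 10 members were higher in A and 1 lower, with a median of 0.28, and the mutant minus WT difference was called for 7 members, 4 below 0 and 3 above. Over all genes 24.4% were higher and 22.9% lower in WT culture A, and 44.5% were called in the mutant minus WT difference. Of 7 replacement histones, made with poly(A) tails outside S phase too, H2AFY alone was called (211.4 and 206.8 FPKM in A against 251.9 and 253.3 in B, log2 -0.27). With the level trend removed 4 of the 7 were higher and 1 lower, around a median of 0.10, against -0.01 without. H2AFZ, a replacement H2A with pseudogene copies, was at 939.0 and 919.8 in A and 978.4 and 997.6 in B and was not called (its sign turns to 0.05 with the level trend removed), and H1FX was not called at 0.08 (-0.17 on the spike-in scale). In the WT line 6 of the 7 replacement histones were lower in A and 1 higher. H2AFY was lower there too (-0.28), and its mutant minus WT difference (0.01) was not called.

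Heat shock chaperones were lower in A. Of 50 tested, 37 (74%) were lower, against 26% of all genes and 55.5% of the highest level class, and 2, DNAJB2 and HSPA13, were higher, with a median of -0.22. HSPB1, the small heat shock protein of that name, was at 199.3 and 203.1 FPKM in A and 261.5 and 269.2 in B. HSPE1, the cochaperonin of mitochondria, was at 281.5 and 267.3 in A and 362.7 and 369.1 in B. STIP1, which links HSP70 to HSP90, was at 186.8 and 184.2 in A and 236.1 and 235.4 in B. B stood 1.32-fold, 1.33-fold and 1.27-fold above A in HSPB1, HSPE1 and STIP1, with close libraries within each culture. HSP90AA1, the inducible HSP90 and named after its values were seen, was at 1090 and 1064 in A and 1424 and 1391 in B. The chaperonin subunit TCP1 fell by 0.32 and CACYBP by 0.30, while DNAJB2, a J-domain cochaperone, was at 12.95 and 11.31 in A and 8.55 and 8.71 in B. Limma adjusted p over the 6 members of smallest p lay between 4.71e-07 (HSPB1) and 4.93e-06 (TCP1). HSF1, the master regulator of the response, was at 36.5 and 37.0 in A and 38.8 and 39.7 in B and was not called. With the level trend removed 25 members were lower and 4 higher around a median of -0.09. On the spike-in scale the median was -0.47 and limma called 0 members in either direction (19 members had an unadjusted p under 0.05). Over all 11042 genes the median on that scale was -0.27, and 2790 had an unadjusted limma p under 0.05. In the WT line 26 members were lower in A and 6 higher, with a median of -0.10, and the mutant minus WT difference was called below 0 for 22 members and above 0 for 5. HSPB1, HSPE1, STIP1, CACYBP and TCP1 were among those lower in WT culture A. For STIP1 the WT difference was -0.29, and the mutant minus WT difference (-0.05) was not called.

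Heat shock factor binds inverted repeats of GAA. The pair GAANNTTC or TTCNNGAA (each its own reverse complement, and overlapping in longer arrays) was in 9 of 33 matched promoters of the lower members (27.3%), against 11.7% of all promoters and 8.48% of those of the tested genes. The promoters with a pair in the 120 bases before the start are shown for HSPA1B chr6:31827618-31827737 (plus strand), HSPA1A chr6:31815423-31815542 (plus strand), CHORDC1 chr11:90223050-90223169 (minus strand) and HSPA8 chr11:123062137-123062256 (minus strand), in the same build and direction, with the pairs in capitals.
HSPA1B: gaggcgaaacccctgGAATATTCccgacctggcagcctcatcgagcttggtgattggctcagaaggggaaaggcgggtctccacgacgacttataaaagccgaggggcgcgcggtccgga
HSPA1A: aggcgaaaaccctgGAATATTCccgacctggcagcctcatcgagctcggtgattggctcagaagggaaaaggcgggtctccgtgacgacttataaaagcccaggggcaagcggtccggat
CHORDC1: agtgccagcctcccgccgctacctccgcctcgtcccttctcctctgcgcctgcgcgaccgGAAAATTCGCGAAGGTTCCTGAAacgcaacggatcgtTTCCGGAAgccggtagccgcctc
HSPA8: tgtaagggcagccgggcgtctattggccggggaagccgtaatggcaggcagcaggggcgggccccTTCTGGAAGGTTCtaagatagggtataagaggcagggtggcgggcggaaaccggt
HSPA1A and HSPA1B, the inducible HSP70 genes, are near-identical copies whose reads can be divided between them. HSPA1A was at 53.15 and 53.02 FPKM in A and 61.6 and 64.9 in B, and HSPA1B at 64.9 and 65.8 in A and 75.3 and 80.4 in B, with a difference of -0.25 for each. CHORDC1, an HSP90 partner, was at 62.1 and 61.8 in A and 73.4 and 71.4 in B. HSPA8, the constitutive HSC70, was at 2225 and 2150 in A and 2502 and 2489 in B. In cells with the WT construct these 4 genes were lower in A by 0.36, by 0.35, by 0.21 and by 0.23, and the mutant minus WT difference was called for none of them (limma adjusted p 0.077, 0.11, 0.83 and 0.58).

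Other abundant groups of growth and metabolism were lower in A in the mutant line, while their medians in the WT line lay above 0 (0.02 for the proteasome, 0.14 for the respiratory chain, 0.04 for ribosome biogenesis and 0.05 for glycolysis). All 38 proteasome genes lay below 0 and 34 (89.5%) were called lower, against 55.5% in the highest level class, with a median of -0.20. PSMA6, a subunit of the core particle, was at 362.7 and 361.7 FPKM in A and 470.7 and 482.8 in B. PSME2, of the interferon-inducible activator, was at 205.4 and 199.5 in A and 263.8 and 284.9 in B, and PSMA3 fell by 0.34. The mutant minus WT difference was called below 0 for 30 of the 38 and above 0 for 0. Of 75 nuclear genes of the respiratory chain, 57 (76%) were lower and 0 higher, again against 55.5%, with a median of -0.17. ATP5D, a subunit of ATP synthase, was at 53.7 and 55.0 in A and 78.4 and 78.7 in B. CYC1, cytochrome c1, was at 90.2 and 92.2 in A and 115.2 and 119.3 in B, and the complex I subunit NDUFB2 fell by 0.38. In the WT line 52 respiratory genes were higher in A and 1 lower, and the mutant minus WT difference was called below 0 for 65 of 75. Both groups shrank with the level trend removed, to 15 lower and 0 higher proteasome genes and 22 lower and 6 higher respiratory genes.

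Ribosome biogenesis and glycolysis genes were mostly lower in A. Of 51 biogenesis factors, 32 (62.7%) were lower and 0 higher, with a median of -0.11. That share is near the 55.5% of the highest level class, and with the level trend removed 14 were lower and 6 higher. NHP2, of the RNA pseudouridylation particles, was at 183.3 and 188.2 FPKM in A and 247.8 and 258.3 in B. FBL, the RNA methylase fibrillarin, was at 285.9 and 272.1 in A and 345.2 and 357.6 in B, and LYAR fell by 0.28. The mutant minus WT difference was below 0 for 33 of these factors. Of 41 genes of glycolysis and hypoxia, 24 (58.5%) were lower and 4, ALDOC among them, were higher, with a median of -0.16. Their median level, 28.9985 FPKM, lies in the second highest class, of which 32.6% were lower, and with the level trend removed 21 were lower and 7 higher. LDHA, lactate dehydrogenase A, was at 341.6 and 337.1 in A and 442.1 and 441.0 in B. MIF, a cytokine gene induced by hypoxia, was at 609.9 and 685.8 in A and 856.9 and 906.1 in B. Of the cytosolic ribosomal proteins, 7 of 78 (8.97%) were lower, a smaller share than the 26% of all genes and the 55.5% of the highest level class to which their median level (1605 FPKM) belongs, around a median of -0.04 that turned to 0.10 (53 higher, 3 lower) with the level trend removed. Their called members RPL6, RPL35 and RPS26 differed by -0.22, -0.24 and -0.22 and have pseudogene copies. The WT cultures set these genes apart more, with 76 of 78 higher in A (24.4% of all genes were higher in A in WT, and 22.9% lower), and 68 were called lower in the mutant minus WT difference (44.5% of all genes were called there in either direction).

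Genes tied to growth arrest and nutrient supply were higher in A. Of 27 tested, 18 (66.7%) were higher and 2, BCL6 and ULK1, were lower, against 16.6% higher over all genes, with a median of 0.20 that became -0.05 on the spike-in scale. The list was written with earlier results of these data known and holds some of the largest rises, so its share is not independent of them. Beside TSC22D3, YPEL5 and BTG2, the list held TXNIP, a thioredoxin inhibitor that rises with glucose, at 33.8 and 32.3 FPKM in A and 18.3 and 18.2 in B. Its relative ARRDC4, named after its values were seen, was at 6.204 and 5.910 in A and 3.49 and 3.20 in B. TXNIP differed by 0.85 ± 0.04 (limma adjusted p = 1.31e-10) and was also called on the spike-in scale, where 5 members were higher and 2 lower. For the WT cultures 6 members of the list were higher in A and 13 lower, and the mutant minus WT difference was called above 0 for 14 and below 0 for 2.

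Of 24 p53 targets, 10 (41.7%) were higher and 4 (16.7%) lower, against 16.6% higher and 26% lower over all genes, with a median of 0.10 (-0.15 on the spike-in scale). BTG2 is in this list, in the growth arrest list and in the immediate early list, so these counts are not separate. ZMAT3, a splicing regulator under p53, was at 9.46 and 10.1 FPKM in A and 7.01 and 6.62 in B. TP53INP1 was at 6.404 and 6.498 in A and 4.54 and 4.45 in B, and the WT cultures differed likewise (log2 0.53 against 0.51). The direct p53 target CDKN1A, the cell cycle inhibitor p21, named after its values were seen, was at 62.8 and 59.2 in A and 49.5 and 51.0 in B, while MDM2 was lower. Of 24 immediate early genes 12 (50%) were higher and 2 (8.33%) lower, with a median of 0.14 (-0.12 on the spike-in scale). NR4A1, an orphan nuclear receptor, was at 5.20 and 4.91 in A and 2.87 and 3.14 in B.

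ATF4 targets, the genes of amino acid shortage, were called in both directions. Of 41, 11 (26.8%) were higher and 12 (29.3%) lower, with a median of -0.00, against 16.6% higher and 26% lower over all genes. Their median level (56.5 FPKM) lies in the highest level class, where 5.61% were higher and 55.5% lower. With the level trend removed 16 were higher and 6 lower, around a median of 0.06. The 3 members of smallest p, DDIT3, TRIB3 and PPP1R15A, were higher. TRIB3 was at 40.3 and 39.8 FPKM in A and 24.8 and 25.2 in B. DDIT3, the stress factor CHOP, was at 29.01 and 27.43 in A and 16.9 and 17.7 in B. PPP1R15A, a phosphatase subunit that reverses the translation block, was at 18.9 and 17.0 in A and 12.2 and 12.3 in B. ATF4 itself was lower by 0.12, as were aminoacyl-tRNA synthetase genes such as EPRS and GARS and the serine synthesis gene PHGDH, all named after their values were seen. In the WT line TRIB3 and DDIT3 were lower in A, and the mutant minus WT difference was 1.07 and 0.98. Among 26 chaperones and regulators of the endoplasmic reticulum, 10 (38.5%) were higher and 2 (7.69%) lower, with a median of 0.06 (-0.19 on the spike-in scale, and 0.19 with 20 higher when the level trend was removed). The same shares stand beside these, since the median level of the endoplasmic reticulum genes (84.8 FPKM) is also in the highest class. DNAJB9, a J-domain cochaperone of that compartment, was at 11.01 and 11.72 in A and 7.45 and 7.61 in B. CREB3L2 and EDEM1 differed by 0.36 and 0.25, EDEM1 falling to -0.00 on the spike-in scale. CREB3L2 was also called higher in A in the WT line (0.35). HSPA5, the chief chaperone there, was not called (log2 0.08). Of 33 cholesterol synthesis genes 5 (15.2%) were higher and 5 lower, near the 16.6% of all genes on the higher side and below the 26% on the lower side. ELOVL6, SREBF2 and HMGCS1 were the 3 of smallest p, at 0.25, 0.22 and 0.21, and on the spike-in scale SREBF2 and HMGCS1 were at -0.03 and -0.04.

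Immune genes moved in both directions. MHC class II, which presents peptides to T cells, was higher in A: 10 of 15 members (66.7%) were higher, against 16.6% of all genes, and 2, CD74 and RFXANK, lower, with a median of 0.21 (-0.05 on the spike-in scale). HLA-DMA, of the peptide-loading catalyst, was at 46.5 and 42.8 FPKM in A and 33.2 and 34.7 in B. HLA-DMB, its partner, was at 23.4 and 23.0 in A and 17.7 and 18.2 in B, and HLA-DOA differed by 0.40. In WT cells 10 of the 15 were lower in A and 1 higher, and the mutant minus WT difference was called above 0 for 11 and below 0 for 0. Of 40 interferon response genes 15 (37.5%) were higher and 7 (17.5%) lower, against 16.6% and 26% over all genes, with a median of 0.10 (-0.14 on the spike-in scale). MX1, an antiviral GTPase, was at 2.40 and 2.46 in A and 0.554 and 0.768 in B. BST2, which tethers virions, was at 32.2 and 34.0 in A and 43.1 and 45.9 in B, opposite in direction to MX1.

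B-lineage markers were called in both directions. Of 29 markers, 8 (27.6%) were higher and 15 (51.7%) lower, the latter near the 55.5% of the highest level class to which their median level belongs, with a median of -0.10 that became 0.00 with the level trend removed. Of 26 genes of pre-B-cell receptor signalling, which shares members with the markers, 8 (30.8%) were higher and 11 (42.3%) lower. Their median level (37.7 FPKM) lies in the second highest class, where 12.2% were higher and 32.6% lower. With the level trend removed 9 were higher and 6 lower. IGLL1, the lambda5 chain of the surrogate light chain, was at 623.2 and 615.1 FPKM in A and 936.8 and 943.1 in B, a difference of -0.60 ± 0.05 (limma adjusted p = 4.22e-08). CD72, an inhibitory B-cell coreceptor, was at 27.5 and 26.9 in A and 15.4 and 16.0 in B, the opposite direction to CD22. The 3 tested myeloid markers were low in all libraries: CD68 was at 3.28 and 2.87 in A and 1.72 and 1.94 in B, LYZ differed by 0.34 (not called without any 1 library) and CD33 was not called. Of the adherent-cell markers, TAGLN, an actin-binding protein, was at 5.44 and 5.42 in A and 3.29 and 2.91 in B, ACTA2 differed by 0.61 and VIM by -0.21. The T-cell marker list had GATA3 as its tested member, which was lower in A.

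**Figure D4:**
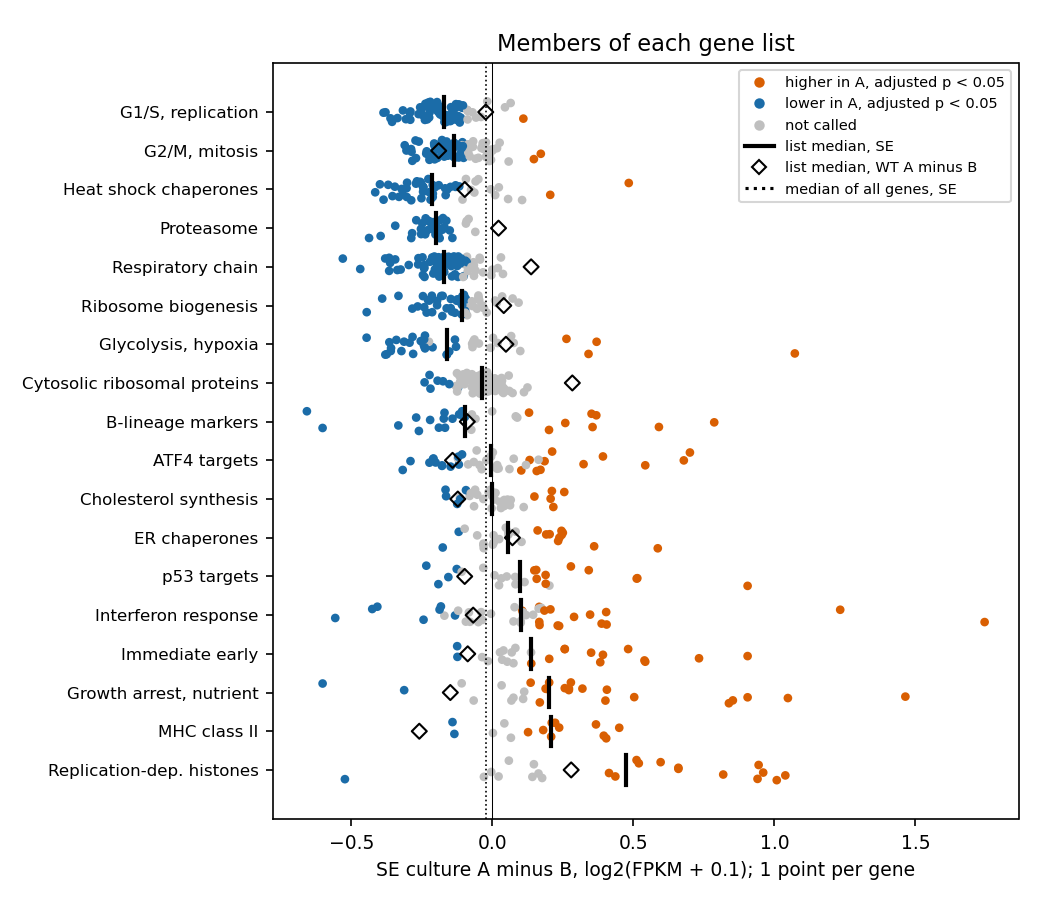
Each point is a tested member of a gene list at its culture A minus B difference in the mutant line, in log2(FPKM + 0.1), coloured orange where called higher in A, blue where called lower and grey where not called. Bars are list medians in the mutant line, open diamonds are the medians of the same lists in the WT line, and the dotted line is the median of all 11042 genes (-0.02). Of the marker lists for cell types, the B-lineage one is drawn, and medians of the lists drawn run from -0.22 for heat shock chaperones to 0.47 for replication-dependent histones.

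Over all genes, the letters A and B did not mark the same differences in both lines. Some lists went the same way in both, such as mitosis, heat shock and replication-dependent histone genes. Others, such as respiratory chain and MHC class II genes, went opposite ways. In the WT line 5222 genes were called between the cultures, 2691 (24.4% of those tested) higher in A and 2531 (22.9%) lower. Genes called in both lines numbered 2446, which is 52% of the mutant calls and 46.8% of the WT calls. The 46.8% is near the 42.6% of all genes called in the mutant line. The 52% stands beside the 24.4% higher and 22.9% lower in the WT line. Of the 2446 genes, 1239 had the same direction and 1207 the opposite one. Across all genes the mutant and WT differences correlated at Pearson r = 0.08, between comparisons that share no library. The mutant minus WT difference was called for 4909 genes, 2857 below 0 and 2052 above.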

How the data were processed

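Poly(A) RNA was sequenced in 8 NALM6 libraries, of which the 4 of the mutant line form the comparison. The authors deposited FPKM in an unnormalized and a normalized table, made with HISAT, Cufflinks 2.0.0 and the hg19 genome, per the submitters' processing notes; no source used here names the normalization method, and the normalized values are called the spike-in scale because their spike-in sums are nearly equal in all libraries. FPKM holds no counts, so depth is unknown. Names of small RNAs (MIR, SNOR, SCARNA, RNU, RN7, RNA5) and ERCC rows were left out, and 0 other columns of per-sample values were present. The minimum mean was 1 FPKM and the pseudocount 0.1, which understates changes of low genes. limma 3.58.1 in R 4.3.3 (moderated statistics, prior variance following mean level, 1 residual degree of freedom per gene) was fitted to culture and treatment in the 4 libraries, and to all 8 for the mutant minus WT difference and for fits without 1 library. Adjusted p-values are Benjamini-Hochberg over 11042 genes. Genes named are HMGN1, the 12 largest differences in each direction at 5 FPKM or more and the 4 largest below, among called genes whose cultures do not overlap (LOC, LINC, FLJ, KIAA, antisense and read-through names skipped), the 6 members of smallest p of the 4 lists of replication, mitosis, histones and heat shock, and the 3 of smallest p of the other lists. A gene that this rule selects is not reported here. Genes outside this rule, including those whose promoters are shown, were chosen after their values were seen. The comparison, the members and the 25 lists were chosen with earlier results of these data known. Promoters come from RefSeq (GRCh38.p14), matched by symbol for 8173 tested genes, and no coordinates of that build are set against hg19 data. Whether the kit marks strand is not known, so reads of antisense partners can be mixed. Alternatives were other pseudocounts, filters, scalings, trend and robust settings, the treatment term, small RNA names kept, the 8-library fits, fits without 1 library, and, added after the data were seen, removal of the level trend. Replicate letters do not pair the lines, since the labels name no shared batch; the treatment term pairs the libraries within a line.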

Additional observations from a re-analysis of the deposited data

Results flagged for a closer look

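These results are listed because the culture difference in the mutant line and that in the WT line differed by the test of the difference itself (limma, all 8 libraries). That test called 4909 genes, and 1207 genes were called in opposite directions in the mutant and WT lines. Among the 101 named genes, 83 passed the test of the difference and 29 of them had opposite calls in the lines. Most named genes were chosen by their mutant A minus B difference, which is part of this contrast. Their share is therefore not independent of that choice, and over all 11042 genes tested 44.5% passed. Each value that follows is the mutant A minus B difference less the WT one, on the log2 scale.

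Genes higher in mutant culture A and lower in WT culture A included IFITM1 (1.97), TSC22D3 (1.90), CHRNA1 (1.72) and SLX1A (1.65, with a near-identical copy). The smooth muscle actin gene ACTA2, low in all libraries, stood at 1.52. The stress regulators TRIB3 and DDIT3 stood at 1.07 and 0.98, and TXNIP at 1.07. The class II genes HLA-DMB, HLA-DMA and HLA-DOA stood at 0.88, 0.64 and 0.56. DNAJB9 stood at 0.79 and EDEM1 at 0.54, both of the endoplasmic reticulum, and HMGCS1 of cholesterol synthesis at 0.67.

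Genes lower in mutant culture A and higher in WT culture A included BCYRN1 (-4.71), which is listed at 0 in 1 DOX library of each line. The WT vehicle libraries held 0.802 FPKM of BCYRN1 in A and 1.06 in B, so its WT direction rests on the DOX libraries. TMEM238 stood at -1.47, TMEM160 at -1.22 and PRR7 at -1.11. GAMT stood at -0.99, WDR18 at -0.90 and HEATR5B at -0.78. The respiratory genes ATP5D and CYC1 stood at -0.85 and -0.65, and MIF at -0.60. The ribosomal protein genes RPL6, RPS26 and RPL35 stood at -0.51, -0.50 and -0.44, the helicase gene MCM4 at -0.50 and HMGN3 at -0.34. No culture had enough libraries for a check of single outlying samples.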

How the results depend on the processing

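The count of 4704 called genes was 0 with no minimum level (18172 rows in limma, 5299 at an unadjusted p under 0.05), 678 in the normalized table and 1131 with small RNA names kept. In the fit of all 8 libraries it was 4454 with a replicate block in the other line and 5 with no replicate block there. Without 1 library it ran from 2571 to 2997. The WT count of 5222 became 0 with no minimum (5366 at an unadjusted p under 0.05), 8294 in the normalized table, 2411 with small names kept and 963 with no replicate block in the mutant line. The mutant minus WT count of 4909 became 3240 with no minimum and 8504 in the normalized table. The shift of all genes was -0.0212 in the unnormalized table and -0.272 in the normalized one. The values whose signs turned in the normalized table, given next, all lay above that -0.272, so they stayed above the median gene. Signs turned in the normalized table for H1FX (-0.17), EDEM1 (-0.00483), SREBF2 (-0.0343) and HMGCS1 (-0.0415) and for the list medians of endoplasmic reticulum chaperones (-0.191), growth arrest (-0.0534), p53 targets (-0.153), immediate early (-0.117), interferon (-0.144) and MHC class II (-0.0511). With the level trend removed they turned for H2AFZ (0.0495) and for the medians of replacement histones (0.0974), ATF4 targets (0.0588), cholesterol synthesis (0.0587), ribosomal proteins (0.0992), pre-B-cell receptor (0.00537), B-lineage (0.00486) and HMGN genes (0.0242). With a minimum of 5 FPKM the adherent-cell median turned to -0.208. Of 101 named genes, 53 were no longer called in the normalized table, 98 with no minimum, 94 with no replicate block in the other line, 13 with small names kept and 5 to 7 without 1 library; the other settings changed at most 4 calls to not called. The cause was not tested.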

Other observations

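The genes given here lie outside the naming rule and were chosen after their values were seen. NPM1, the nucleolar chaperone nucleophosmin, was at 1336 and 1286 FPKM in mutant culture A (vehicle, then DOX) and at 1723 and 1715 in B, a log2 difference of -0.39 that was 0.06 in the WT line. HSPD1, the mitochondrial chaperonin, was at 642.8 and 628.1 in A and 816.5 and 808.3 in B. The transcription factor MYC was at 251.7 and 252.5 in A and 244.7 and 247.6 in B and was not called. PAX5, which holds B-cell identity, was not called either. BCL6, a repressor of germinal centre B cells, was at 3.63 and 3.86 in A and 5.71 and 5.75 in B, a difference of -0.60.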
